A study of Mus musculus with 12 samples.

Results

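Kruppel-like factors (Klf) are transcription factors that bind GC-rich and CACCC sequences in promoters and enhancers through C2H2 zinc fingers at the C-terminal end of the protein. Their N-terminal parts differ, so that some members mainly activate genes and others recruit corepressors. In the lung, Klf2 and Klf4 are known for keeping endothelium quiescent, Klf2 also for keeping T cells in a resting state, and Klf5 for the maturation of the airway and alveolar epithelium. N6-methyladenosine (m6A) is a methyl mark that a METTL3-containing enzyme writes on adenosines of RNA, often near the stop codon and in the 3' UTR, and it is known to alter how long an mRNA lasts and how well it is translated.

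The members described here are 10 genes, Klf2, Klf3, Klf4, Klf5, Klf6, Klf7, Klf10, Klf11, Klf12 and Klf13, of 14988 genes on which an m6A peak was called in either of 2 lists. A peak was taken as theirs when the authors' annotation assigned it to a member or when it was called on a member. This gave 31 of 27292 peaks in the OVA list and 31 of 26102 peaks in the PBS list. Lungs came from female BALB/c mice of 6 to 8 weeks, with 3 mice in each group. Mice of the OVA group, a model of allergic asthma, were sensitised by intraperitoneal ovalbumin (OVA) with alum on days 0 and 7 and then inhaled an aerosol of 3% OVA for 30 min on each day from day 14 to day 20. Control mice received phosphate-buffered saline (PBS) alone by both routes, with neither OVA nor alum. All lungs were taken on day 21. The methods place this after a bronchial provocation test, in which anaesthetised mice were ventilated with rising concentrations of methacholine. Fragmented RNA was enriched with an antibody to m6A (IP) and sequenced beside unenriched RNA of the same mouse (input). Each group had 3 IP and 3 input libraries but 1 deposited list, so no value of a single mouse was used, no error can be given, and no difference between the lists was tested.

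The fold enrichment of a peak is the ratio of IP over input reads in it, as the peak caller gave it, and describes how strongly the antibody enriched that stretch of the mRNA, not how much of the mRNA there was. Among genes that mark lung cells, 8 of 10 had a peak in each list, among them Sftpb of alveolar type II cells, Scgb1a1 of club cells, Foxj1 of ciliated cells, and Pecam1 and Cdh5 of endothelium. The others were Sftpa1, a surfactant protein gene, Ptprc of white cells and Col1a1 of fibroblasts. Sftpc, also a surfactant protein gene, and Epcam, an epithelial adhesion gene, had none. A marker without a peak may still be expressed, and RNA amounts were not analysed here. Since whole lung was used, the number of cells of a type and the RNA per cell cannot be told apart.

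All 10 members had a peak called on them in both lists, as did 82% of the 14988 genes, and the members were chosen with these lists known. Their median fold enrichment was 5.01 in OVA and 4.21 in PBS, beside 5.59 and 5.44 over all peaks. Their fold enrichments ran from 1.36 to 29.5 in OVA and from 1.2 to 21.9 in PBS, and no member peak lay above percentile 97.4 in OVA or 94.7 in PBS. Of these peaks, 13 of 31 in OVA and 12 of 31 in PBS lay above the median of all peaks of their list. At the upper end, 4 OVA peaks and 2 PBS peaks were at or above percentile 90 of their list, and 8 and 4 were at or below percentile 10. The genes ranked alike at the top. Klf2 had the highest fold enrichment in both lists, and Klf4, Klf13 and Klf7 took the next places in both, although Klf4 stood before Klf13 in the OVA list and after it in the PBS list. Klf3 had the lowest maximum of the 10 in both lists.

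Most of these peaks were found in both groups. Of the member peaks, 2 of 31 in the OVA list had no overlapping peak in the PBS list, where 19.4% of all OVA peaks had none, and 2 of 31 in the PBS list had no overlapping peak in the OVA list, against 14.5% of all PBS peaks. The OVA peaks without a counterpart were weak stretches of the 3' UTR of Klf6, with a fold enrichment of 1.36, and of Klf13, with 1.41. Those of the PBS list were both called on Klf7, at 1.28 and 4.19. Among all peaks with a fold enrichment under 1.5, 61.7% in OVA and 34.7% in PBS had no counterpart, so weak peaks in general were more often in 1 list than strong ones. With only peaks of a fold enrichment of at least 2 in both lists, 0 of 23 OVA peaks and 4 of 27 PBS peaks of the members had no counterpart. Of all such peaks, 19.5% and 14.4% had none. The PBS count holds the Klf7 peak at 4.19 and peaks whose overlapping OVA peak fell below the cut. The latter were on Klf3, with 2.47 and 2.38 in PBS beside 1.66 and 1.9 in OVA, and on Klf12, with 2.33 beside 1.82. This count therefore does not show that those stretches lacked a peak in OVA.

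No overlapping pair of member peaks differed by 2-fold. Of 29 pairs, 0 had an OVA fold enrichment at least 2 times that of PBS, beside 7.63% of all 22006 pairs, and 0 had one at most 0.5 times, beside 6.79%. The ratio of OVA over PBS ran from 0.672 to 1.86 with a median of 1.07. As a log2 ratio this median was 0.1, and over all pairs it was 0.12. At a threshold of 1.5-fold, 4 pairs, on Klf2, Klf4, Klf5 and Klf11, were past it with the higher value in OVA (18.2% of all pairs) and 0 with the higher value in PBS (12.6% of all pairs). At any size of difference, the OVA value was the higher one in 17 of 29 pairs (58.6%), close to the 59.6% of all pairs, and 14 of 29 lay above the median ratio of all pairs. The peak scores had another order. The log10 p of the PBS peak was the lower, that is the stronger, in 24 of 29 member pairs, beside 42.4% of all pairs with finite values, and 13 of these 24 pairs (54.2%, beside 39.7% of all such pairs) had the higher fold enrichment in OVA. The score depends on read numbers as well as on enrichment, and read numbers per peak were not analysed here.

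**Figure D1:**
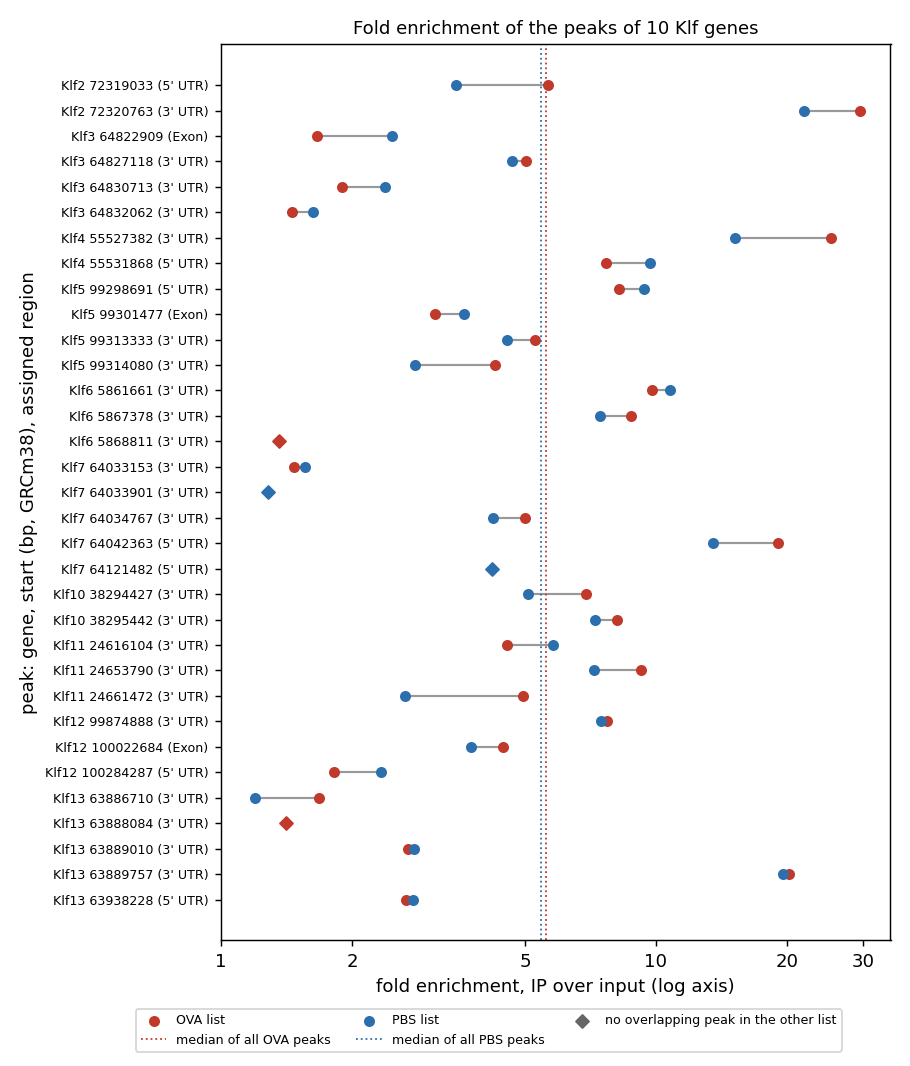
Fold enrichment of IP over input, on a log axis, for each peak of the 10 genes, with OVA in red and PBS in blue. Lines join overlapping peaks, diamonds are peaks without a counterpart, and dotted lines are the medians of 5.59 (OVA) and 5.44 (PBS) over all peaks. All 29 pairs lie less than 2-fold apart, and the 3 strongest of the OVA list are the 3' UTR peaks of Klf2, Klf4 and Klf13.

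The first group of members mostly activates transcription through acidic N-terminal domains. Klf2, which is induced in endothelium by laminar flow, had 2 peaks in each list on chromosome 8. The peak in its 3' UTR, at 72320763 to 72321328 in OVA and 72320793 to 72321328 in PBS, had a fold enrichment of 29.5 in OVA and 21.9 in PBS. These were the highest values of any member, above 97.4% and 94.7% of the peaks of their lists. The peak assigned to the 5' UTR had a fold enrichment of 5.65 in OVA, at the middle of its list (percentile 50.4), and of 3.47 in PBS (percentile 32.8). It began 29 bp before the RefSeq start of the gene and had 2 exonic blocks in both lists, of 567 bp together in OVA and 626 bp in PBS. It therefore reached well into the coding sequence. RefSeq (GRCm38.p6) shows this in the first block, where 30 bases at chr8:72319078-72319107 on the plus strand, with the start codon in capitals, are shown to place the peak against the coding start.
Klf2 coding start: ATGgcgctcagcgagcctatcttgccgtcc
The 79 bases of the peak that lie in the RefSeq promoter window hold 0 copies of GGAC, the core of the usual m6A motif, on the gene's strand. Of 32851 windows, 26.7% hold it in their last 79 bases. The rest of the peak was not searched.

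Klf4, a factor of endothelium, monocytes and differentiating epithelium and one of the genes used to reprogram cells to pluripotency, also had 2 peaks in each list, on the minus strand of chromosome 4. The peak assigned to its 3' UTR had a fold enrichment of 25.3 in OVA and 15.2 in PBS, a ratio of 1.66. It ran over 3 exonic blocks, from 55527382 to 55530917 in OVA and from 55527531 to 55530917 in PBS, so that 1 call joined the 3' UTR with upstream exons. The peak assigned to the 5' UTR went the other way, with 7.69 in OVA and 9.71 in PBS. The extent of that peak differed too: in OVA it was 1 block of 569 bp from 55531868 to 55532436, and in PBS it had 2 blocks with 509 bp together, from 55531742 to 55532346. For Klf4, then, the peak near the 3' end had the higher fold enrichment in OVA and the one near the 5' end in PBS.

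Klf5, a factor of proliferating and maturing epithelium, had 4 peaks in each list on chromosome 14, and each had a counterpart. The peak at its first exon started at the first base of the RefSeq gene, 99298691, and had a fold enrichment of 8.21 in OVA and 9.38 in PBS. With log10 p values of -2.82 and -5.99 it was among the least certain of the members' peaks. The exonic peak at 99301477 to 99302044 had the same edges in both lists, with 3.1 in OVA and 3.62 in PBS. Both peaks of the 3' end had the higher value in OVA. The one that begins at 99313333 in OVA had 5.27 and 4.54, and the one that begins at 99314080 had 4.26 and 2.8, a ratio of 1.52. The last peak ended 1534 bp (OVA) and 1475 bp (PBS) past the RefSeq end of Klf5, although it was called on that gene, so the annotation used by the authors has a longer 3' end.

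Klf6, an injury-induced factor of many cell types, had 3 OVA peaks and 2 PBS peaks on chromosome 13, all of them assigned to a transcript annotated as a retained intron. The strongest was labelled as 3' UTR but began 172 bp after the RefSeq gene start, at 5861661, and had 3 exonic blocks that ended at 5865205 in OVA and 5865175 in PBS, which is 5188 bp and 5218 bp before the RefSeq end of the gene. Its fold enrichment was 9.79 in OVA and 10.8 in PBS, and its log10 p of -2140 and -2460 placed it among the most certain of the family. The next peak, at 5867378 to 5867856 in OVA, had 8.76 in OVA and 7.44 in PBS. The weak OVA peak at 5868811 to 5868990, with 1.36, was in the lowest part of its list, above 0.9% of the peaks.

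Klf7, a factor known from neurons and from fat cell differentiation, was the member whose peaks were hardest to assign. On the minus strand of chromosome 1, 3 OVA peaks and 5 PBS peaks were called on it, but by the assigned name it would have 0 and 1. The strongest had 3 exonic blocks from 64042363 to 64121183 in OVA and from 64042393 to 64121213 in PBS, with a fold enrichment of 19.1 and 13.5, and the annotation gave it to the antisense gene Gm13748. The peak that starts at 64034767 in OVA, with 5.01 in OVA and 4.21 in PBS, and the weak one that starts at 64033153, with 1.47 and 1.56, were given to the microRNA gene Mir6899. The libraries kept the strand of the RNA, but the sources used here do not say whether peak calling used it, so the signal of Klf7 and of Gm13748 cannot be told apart. In PBS 2 further peaks were called. The one at 64033901 to 64033990 had 1.28, above 0.3% of the PBS peaks. The other, the only Klf7 peak assigned to Klf7 itself, lay in the 5' UTR from 64121482 to 64122252, had 4.19, and covered 61 bp in blocks of 10 bp and 51 bp. It is the strongest of the 4 member peaks without a counterpart and rests on little sequence. Its short block, at chr1:64121482-64121491 on the minus strand of GRCm38.p6, is shown for that reason.
Klf7 short block: gggagagaag

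**Figure D2:**
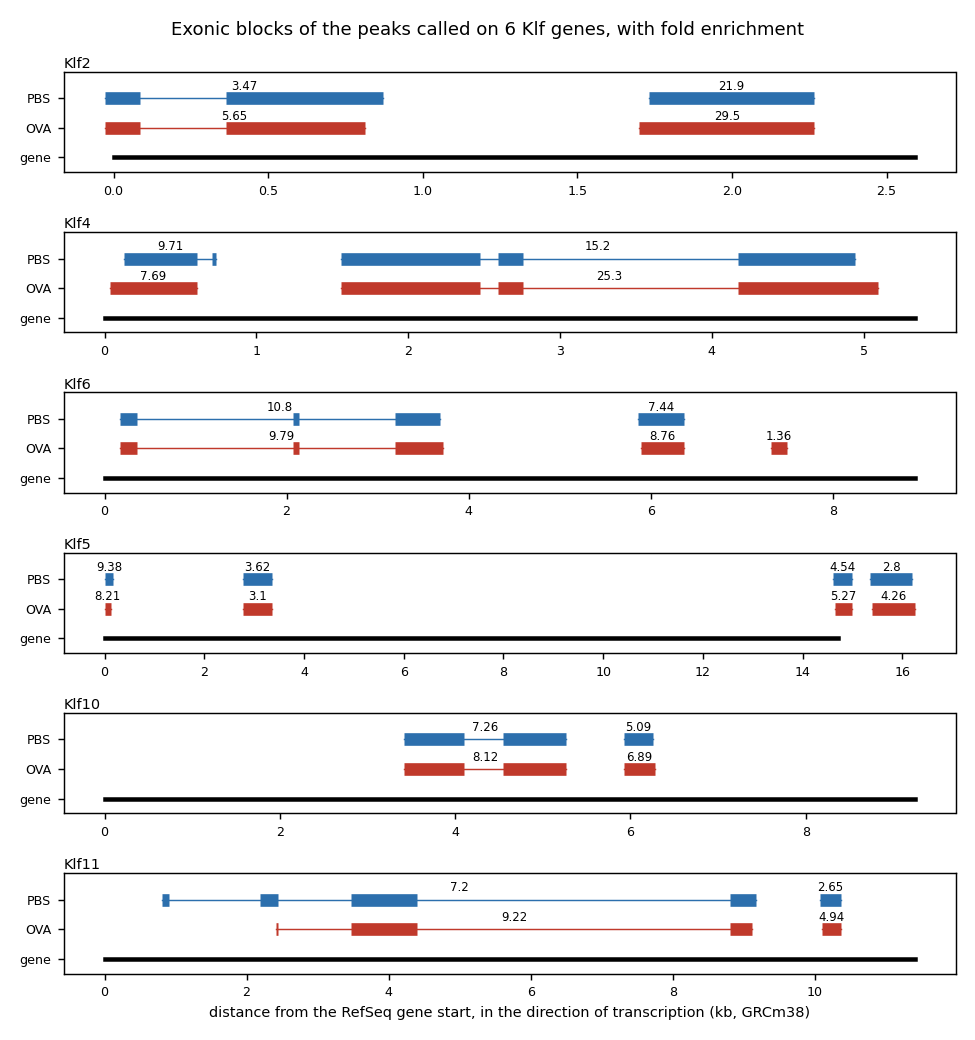
Exonic blocks (thick bars) of the peaks called on 6 members, along the RefSeq gene (black) in kb from its start in the direction of transcription, with OVA in red and PBS in blue. Numbers are fold enrichments of IP over input. Most block edges of the lists lie close together, and peaks of Klf4, Klf6 and Klf11 join exons that lie far apart.

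Klf3 and Klf12 repress transcription by binding the corepressor CtBP. Klf3, a factor of B cells, red cells and fat, had 4 peaks in each list on chromosome 5, and each had a counterpart. Its main peak, from 64827118 to 64830293 in OVA, had a fold enrichment of 5.03 in OVA and 4.68 in PBS and covered 1470 bp and 1440 bp of exon. The other peaks of Klf3 were weak, and all had the higher value in PBS. The exonic one, assigned to a transcript marked for nonsense-mediated decay, had 1.66 in OVA and 2.47 in PBS, the lowest ratio of the 29 pairs. These calls differed in extent, with 1 block of 151 bp from 64822909 in OVA and 2 blocks of 271 bp together from 64822328 in PBS. In the 3' UTR the values were 1.9 and 2.38 at the peak that starts at 64830713 in OVA, and 1.46 and 1.63 at the one that starts at 64832062. Of the 4 stretches called on Klf3, the main one was thus near the middle of its list (percentiles 46.3 and 44.3), and the others were below it.

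Klf12, a repressor first studied at the AP-2 alpha gene, is the longest of the 10 genes, with 419711 bp in RefSeq on the minus strand of chromosome 14. It had 3 peaks in each list, and 2 of them joined exons across long introns. The 3' UTR peak ran from 99874888 to 99900165 in OVA with 511 bp of exon, and its fold enrichment was 7.7 in OVA and 7.48 in PBS. The exonic peak spanned 87113 bp in OVA, also with 511 bp of exon, and had 4.46 and 3.76. The 5' UTR peak at 100284287 had 1.82 in OVA and 2.33 in PBS. Its log10 FDR of -1.27 in OVA made it the only member peak with an FDR above 0.05.

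Klf10, Klf11 and Klf13 bind the corepressor Sin3A, and Klf10 and Klf11 are early genes of TGF-beta signalling, a pathway of airway remodelling. Klf10 had 2 peaks in each list, on the minus strand of chromosome 15. The peak at 38295442 to 38297294 had the same edges in both lists and a fold enrichment of 8.12 in OVA and 7.26 in PBS. The peak that starts at 38294427 in OVA had 6.89 and 5.09. Both values of Klf10 were thus higher in OVA.

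Klf11 had 2 peaks called on it in each list, on chromosome 12. The peak near its 3' end, at 24661472 to 24661742 in OVA, had a fold enrichment of 4.94 in OVA and 2.65 in PBS, and its ratio of 1.86 was the highest of the 29 pairs. The log10 p was alike in both lists, at -34.3 and -36.2. The other peak had 9.22 in OVA and 7.2 in PBS, but the calls differed in extent: 3 blocks from 24653790 in OVA and 4 blocks from 24652182 in PBS, with 1258 bp and 1647 bp of exon. A further pair was assigned to Klf11 by the annotation but was called on Grhl1, the gene of an epithelial transcription factor. It lay 35267 bp (OVA) and 35297 bp (PBS) before the RefSeq start of Klf11 and had 4.55 in OVA and 5.81 in PBS.

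Klf13, a factor of T cells that drives late expression of the chemokine RANTES, had 5 OVA peaks and 4 PBS peaks on the minus strand of chromosome 7. The main one, in the 3' UTR from 63889757 to 63891610 in OVA and to 63891580 in PBS, was a single block of 1854 bp and 1824 bp. Its fold enrichment of 20.2 in OVA and 19.6 in PBS was nearly the same, and its log10 p of -4510 and -6170 was the lowest of all member peaks in both lists. The other peaks of Klf13 were weak. At 63889010 the values were 2.69 and 2.78, and in the 5' UTR at 63938228 they were 2.66 and 2.76. The most distal peak, at 63886710 in OVA, had 1.68 and 1.2, and the OVA peak without a counterpart, at 63888084 to 63888174, had 1.41.

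By region, the 3' UTR held 22 of 31 member peaks in OVA and 21 of 31 in PBS (71% and 67.7%), beside 52.7% of all peaks in each list. The 5' UTR held 6 and 7 of them (19.4% and 22.6%, beside 11.6% and 11.4% of all peaks), and other exons held 3 in each list (9.68%, beside 35.7% and 35.9%). The 3' UTR counts include the peak called on Grhl1, which lies far before Klf11. Of peaks called on members, 21 of 30 in OVA and 20 of 30 in PBS had that label (70% and 66.7%). A 3' UTR label was also given to calls of more than 1 block, on Klf3, Klf4, Klf6, Klf7, Klf10, Klf11 and Klf12 in both lists. The paired Klf7 peaks were assigned to Gm13748 and Mir6899, and which transcript gave them their region label was not analysed. Pairs in the 3' UTR, with the pair called on Grhl1 among them, had the higher value in OVA in 14 of 20 cases. Those in the 5' UTR did in 2 of 6, namely Klf2 and the peak called on Klf7 but assigned to Gm13748. Those in other exons did in 1 of 3. Over all pairs these shares were 60.1%, 57.6% and 59.4%. The members' peaks covered a median of 479 bp of exon in OVA and 451 bp in PBS, beside 329 bp and 327 bp over all peaks. More than 1 block was present in 10 OVA and 13 PBS peaks (32.3% and 41.9%, beside 24.1% and 21.4%). Of the members, 3 had at least 4 peaks called on them in OVA and 4 did in PBS, and of all called genes 10.7% and 10.9% did. The called and the assigned gene differed for 4 OVA and 5 PBS peaks (12.9% and 16.1%), beside 22.5% and 22.8% of all peaks.

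Among 7 other Kruppel-like factors, 4 had a peak in each list. Klf9 had the highest fold enrichment of these, with 37.1 in OVA and 32.2 in PBS, above every one of the 10 members. Klf1, the red cell factor, Klf14 and Klf17 had no peak in either list. Of the 9 related Sp factors, 7 had peaks in each list, with the highest at Sp4 (18.7 in OVA and 20.1 in PBS), and Sp7 and Sp8 had none. Of 10 corepressor and coactivator genes, 10 had a peak in OVA and 9 in PBS, where that of Hdac1 was only assigned to it. Ep300, an acetyltransferase that several members bind, had the highest value, with 20 and 24.2. Kat2b, also an acetyltransferase, had its only peak in OVA, in the 5' UTR, with 14.9 but a log10 p of only -4.18. Of all OVA peaks with a fold enrichment of at least 12, 7.92% had no counterpart in PBS. All 4 ubiquitin ligases had peaks in both lists, and Fbxw7, which marks Klf2 and Klf5 for breakdown, led with 31.2 and 32.3.

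Of the kinases and MEF2 factors that induce Klf2 and Klf4, 4 of 5 had peaks in each list, and Map2k5 had none. They had 15 peaks in OVA and 10 in PBS. No counterpart was found for 4 of the 15 and 0 of the 10, beside 19.4% and 14.5% of all peaks. In this group the highest value was that of the kinase gene Mapk7, with 14.3 in OVA and 9.97 in PBS. All 5 genes known as targets of Klf2 in endothelium and lymphocytes had peaks in both lists, although that of Itgb7 was only assigned to it and was called on another gene. S1pr1, the receptor that lets T cells leave lymphoid organs, led in OVA with 16.2, beside 14.5 in PBS, and Thbd, the gene of thrombomodulin, led in PBS with 16.2, beside 15.5 in OVA. Among the white cell markers, 2 of 5 had peaks in each list. Ccr3, the eotaxin receptor of eosinophils, had 13 in OVA and 6.17 in PBS, but over 1875 bp and 61 bp of exon. Cd3e of T cells had at most 5.9 in OVA and 10.4 in PBS. Its OVA peak of 5.9 had no counterpart in PBS, so these highest values belong to different stretches. Epx, Prg2 and Siglecf had no peak in either list. Of the 92 pairs of these lists and markers, that of Ccr3 was the only one past 2-fold with the higher value in OVA (1.09%, beside 7.63% of all pairs), and 3 were past it with the higher value in PBS (3.26%, beside 6.79%). An exonic pair of Sp6 had 5.45 in OVA and 13.4 in PBS. A pair of Crebbp had 1.26 and 16.4, and a pair of Mapk7 in the 5' UTR had 1.86 and 6.96. In these last cases the OVA peak was a stretch of 61 bp, and a stronger OVA peak, with 12.9 and 4.77, overlapped the same PBS peak. A gene without a peak may still be expressed, and the part of cell make-up in the members' values was not tested.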

How the data were processed

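Lung RNA of 3 OVA and 3 PBS mice gave 6 IP and 6 input libraries. The authors used FASTP for read cleaning, HISAT2 for mapping, exomePeak for peak calling and ChIPseeker for annotation (versions are not given in the sources used here). They deposited 1 list per group. How mice were combined is not stated. The authors' fold enrichment, a ratio, sets IP reads against input reads. The deposited score is the log10 of the p value or FDR. Depth per library was not analysed here.

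Starts in the lists are counted from 0: adding 1 matched 395 OVA starts to a RefSeq gene start, and leaving them matched 46. All positions printed are counted from 1. Of OVA peaks called on protein-coding RefSeq genes (GRCm38), 97.7% overlapped that gene. Positions of 10 of 10 members and promoter windows of 8 matched by symbol.

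Peaks were paired by at least 1 bp of shared exonic block, taking the largest overlap. Percentiles are within a list. The members and gene lists were chosen with earlier results of these data known. All members were named with their peaks. From other lists, genes without a peak, with peaks in 1 list, or with the highest fold enrichment were named, and Ccr3, Cd3e, Sp6, Crebbp, Itgb7, Hdac1 and lung markers with peaks were added after their values were seen. Alternatives were stricter FDR (0.05 and 0.001), a fold enrichment of at least 2, other overlap and assignment rules, protein-coding transcripts only, a 1.5-fold threshold and division by list medians. Python 3.11.15, numpy 2.4.6, pandas 2.3.3 and matplotlib 3.10.9 were used. The pairing code was tested on simulated peaks. A white cell marker was left out of its list and is not reported here. Protein sequences and motifs in whole peaks were not analysed here.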

Additional observations from a re-analysis of the deposited data

How the results depend on the processing

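Counts of member peaks, of members with a peak and of peaks in the 3' UTR stayed within 1.5 times under every alternative run on them. By assigned name only, 9 of 10 members had an OVA peak, since Klf7 lost its peaks there, and with protein-coding transcripts only, 8 did in OVA and 9 in PBS. The median fold enrichment of member peaks in OVA (5.01) was 5.02 with an FDR under 0.05, 6.89 with a fold enrichment of at least 2, 4.99 by assigned name, 5.02 by called gene and 4.94 with protein-coding transcripts only. In PBS (4.21) it was 4.54 with an FDR under 0.001, 4.68 with a fold enrichment of at least 2, 4.54 by assigned name, 4.2 by called gene and 4.19 with protein-coding transcripts only.

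Member peaks without a counterpart (2 and 2) became 29 in OVA and 29 in PBS where identical edges were required, a rule that left 89.7% and 89.3% of all peaks without one. With a fold enrichment of at least 2 in both lists they became 0 of 23 in OVA (19.5% of all such peaks) and 4 of 27 in PBS (14.4% of all such peaks). The PBS count then includes peaks of Klf3 and Klf12 whose overlapping OVA peak fell below the cut. With overlap of 50% of both peaks, 3 OVA and 3 PBS peaks had no counterpart. With an FDR under 0.05, 2 and 3 had none. No share over all peaks is given here for these 2 settings. Pairs past 2-fold (0) numbered 0 with overlap of spans or of 50% of both peaks, with an FDR under 0.05, with a fold enrichment of at least 2, with partners called on the same gene and after division by list medians. Identical edges also gave 0 but left 2 pairs. At 1.5-fold there were 4.

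No paired analysis was possible because the lists used here give 1 value per group and peak, and no result comes from a test. Without values per mouse, none of the differences between OVA and PBS can be set against the spread between mice, and depth per peak is unknown.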
